A study of Mus musculus with 6 samples.

Results

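D cyclins and the inhibitors of cyclin-dependent kinases set whether a cell leaves G1 and divides. The genes described here are the D cyclins *Ccnd1*, *Ccnd2* and *Ccnd3*, the Ink4 inhibitors *Cdkn2a*, *Cdkn2b*, *Cdkn2c* and *Cdkn2d*, the Cip/Kip inhibitors *Cdkn1a* and *Cdkn1b*, and *Trp53*, which encodes p53. They were taken by gene name, and 8 of these 10 names were found among the 48733 named genes of the deposited tables. *Ccnd2* and *Cdkn1b* have no row under their own name, because their transcripts lie in merged loci that carry none. D cyclins bind the kinases Cdk4 and Cdk6, which phosphorylate the retinoblastoma protein and so release E2F transcription factors. Ink4 proteins bind these kinases directly, whereas Cip/Kip proteins bind cyclin-kinase complexes. p53 is a transcription factor that activates *Cdkn1a* after DNA damage and other stress.

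All RNA came from CC016/GeniUnc, a Collaborative Cross inbred mouse strain, with no engineered allele or drug named in the labels. Bone is described as femoral cortical bone freed of marrow (3 libraries). Osteoblasts were bone marrow stromal cells grown for 8 days with ascorbic acid (50 µg/ml), beta-glycerophosphate (10 mM) and dexamethasone (10 nM), agents that drive stromal cells to form osteoblasts (3 libraries). Beyond these culture agents no treatment is named. The adherent marrow cultures from which they came can also hold macrophages, and no sort is described. Ages and sexes of the mice were not given in the sources used here.

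The libraries did not part by their labels. The row named *Hbb-bt* spans both adult beta-globin genes, *Hbb-bt* and *Hbb-bs*, on Chr. 7. It measured 34838 FPKM (fragments per kilobase of transcript, scaled to the aligned fragments of the library) in bone 3, 34268 in osteoblasts 2 and 48650 in osteoblasts 3, and 7.05, 3.58 and 3.43 in bone 1, bone 2 and osteoblasts 1. Each library is therefore given below by its deposited label together with whether *Hbb-bt* was above 1000 FPKM, and the deposited labels were kept throughout. Whether labels were exchanged between libraries was not tested, so bone and osteoblasts below mean libraries deposited under those labels, and every mean, fold change and ratio by label rests on that. Libraries are called by label and replicate number, as bone 1 or osteoblasts 3. Libraries above that limit were also those with neutrophil genes (8 of the 9 listed had a named row, summing to 14385 to 17371 FPKM, against 0.497 to 5.79 in the others), B cell genes (6 of 6, 124 to 136 against 7.27 to 20.8), megakaryocyte genes (3 of 4, 559 to 699 against 44.8 to 101) and skeletal muscle genes (4 of 5, 241 to 1017 against 0.0324 to 1.09). The erythroid list (6 of 9) summed to 35889 to 50387 FPKM in them and to 3.53 to 7.29 in the others, where *Epb42* was listed at 0. Macrophage genes (6 of 6) were lower in them, at 403 to 533 FPKM against 1397 to 2762. The osteoblast list (8 of 10) was present in all 6 libraries, at 5587 to 6619 FPKM above the limit and 5600 to 8778 FPKM below it. This sum hides members that went different ways. Of the 8, 1 had its 3 highest and 3 their 3 lowest values above the limit. Those shares were 38.4% and 16.9% over the 12112 genes with a mean of at least 1 FPKM. The osteocyte list (6 of 7) summed to 50.5 to 56.3 FPKM above the limit and 59.8 to 139 FPKM below it, and its members did not go one way. *Sost* measured 15.8 to 22.7 FPKM above the limit and at most 0.198 FPKM below it, *Dmp1* 22.5 to 24.2 FPKM above and 50.0 to 127 FPKM below, and the other 4 overlapped. The part of these other cell types in the values below was not tested, and in bulk RNA a change in the number of cells of a type cannot be told apart from a change in the RNA of each cell. At the depths implied by the tables, 2.035 to 3.385 gigabases of aligned sequence per library, 3 pairs on a transcript of 1 kb give 0.133 to 0.221 FPKM, a floor that covers counting error only. In bone 2 and osteoblasts 1, 71.5% and 65.0% of the summed FPKM lay on unnamed features, against 27.4 to 30.7% in the other 4, so that named genes sum to less FPKM there.

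*Ccnd1* was the most abundant of the 8 genes wherever *Hbb-bt* was low and among the least abundant wherever it was high. *Ccnd1* encodes cyclin D1, the D cyclin typical of mesenchymal and epithelial cells that respond to growth factors, and its row lies on the minus strand of Chr. 7 from 144929931 to 144939925 (GRCm38, the build of the tables). It measured 293 and 166 FPKM in bone 1 and bone 2 and 150 in osteoblasts 1, against 5.50 in bone 3, 6.33 in osteoblasts 2 and 5.17 in osteoblasts 3. The lowest of the first 3 values was 23.7 times the highest of the others, and the ranges of the labels overlapped. The end of *Oraov1*, on the opposite strand, overlaps this row (1.90 to 8.62 FPKM), and the kit does not mark strand, so that reads there cannot be assigned to either gene. Among genes with at least 1 FPKM in the same library, *Ccnd1* stood above 98.5 to 99.0% in the libraries with little *Hbb-bt* and above 44.1 to 49.7% in the rest.

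*Ccnd3*, which encodes cyclin D3, a D cyclin with known roles in lymphoid and erythroid precursors, ran the other way. Its row covers Chr. 17 from 47505051 to 47599691 on the plus strand. It measured 83.1 FPKM in bone 3, 52.7 in osteoblasts 2 and 140 in osteoblasts 3, and 14.8 in bone 1 and bone 2 each and 10.5 in osteoblasts 1. Within the libraries rich in *Hbb-bt* the values spread 2.66-fold, more than for *Cdkn2c*, *Cdkn2d* or *Trp53*, the other genes that were highest there (1.12-, 1.74- and 1.10-fold), but even the lowest was 3.55 times the highest value elsewhere. Unnamed features on the opposite strand overlap this row, at up to 5.73 FPKM, as does the end of *Bysl* (3.00 to 8.38 FPKM), with the same limit on strand. The RefSeq start of *Ccnd3* nearest its 3’ end lies in a CpG-rich window with 2 GC boxes and a core of the cyclic AMP response element.

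The sequence is shown because *Ccnd3* is the named D cyclin that was high in the libraries rich in *Hbb-bt*. It runs from 250 bases before that start to 50 after it (chr17:47593217-47593516, plus strand, RefSeq GRCm38.p6), with capitals for the GC boxes (GGGCGG on either strand) and the response element core (TGACGT).
Ccnd3: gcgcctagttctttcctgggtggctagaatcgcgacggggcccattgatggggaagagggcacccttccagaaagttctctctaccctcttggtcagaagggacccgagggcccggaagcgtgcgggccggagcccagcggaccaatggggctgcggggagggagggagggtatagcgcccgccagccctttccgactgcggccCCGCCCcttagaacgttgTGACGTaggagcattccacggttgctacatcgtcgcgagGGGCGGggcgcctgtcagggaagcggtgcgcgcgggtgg
GC boxes occur in 35.7% of the 32851 RefSeq windows of this length and the core in 7.51%, and neither match says whether a factor binds. *Ccnd1* and *Ccnd2* have no entry in the table of windows.

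The makeup of the named D cyclins therefore differed between libraries more than their sum did. *Ccnd1* made up 95.2, 91.8 and 93.5% of the FPKM of *Ccnd1* and *Ccnd3* together in bone 1, bone 2 and osteoblasts 1. In bone 3, osteoblasts 2 and osteoblasts 3 it made up 6.21, 10.7 and 3.56%. Such shares depend on the unit. In coverage, the mean depth over a feature's bases, *Ccnd1* stood at 16.6 and *Ccnd3* at 25.9 in osteoblasts 2. The summed level was 308, 181 and 160 FPKM in the first set and 88.6, 59.0 and 145 FPKM in the second. The log2 ratio of *Ccnd1* to *Ccnd3*, which does not depend on how a library is scaled, was 4.31, 3.49 and -3.92 in bone 1, 2 and 3 and 3.84, -3.06 and -4.76 in osteoblasts 1, 2 and 3. By label the mean ratio was 1.29 ± 4.53 (SD, n = 3) in bone and -1.32 ± 4.55 (SD, n = 3) in osteoblasts. This difference of -2.62 was smaller than the spread within either label (exact permutation test, two-sided, p = 0.6, where 3 libraries against 3 cannot go below 0.1). Without bone 3 it was -5.22 and without osteoblasts 1 it was -5.20, while among the 3 libraries with little *Hbb-bt* it was -0.06.

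For *Ccnd2*, cyclin D2, only the unnamed locus that spans it can be given. That locus lies on the minus strand of Chr. 6 from 127069665 to 127154696 and measured 43.0 and 29.5 FPKM in bone 1 and bone 2 and 54.7 in osteoblasts 1, against 8.46 in bone 3 and 7.97 and 5.93 in osteoblasts 2 and osteoblasts 3. It was thus high in the same libraries as *Ccnd1*. RefSeq places *Ccnd2* from 127125162 to 127152188, and the locus is much wider than the gene, so how much of the value is *Ccnd2* cannot be read from the table.

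**Figure D1:**
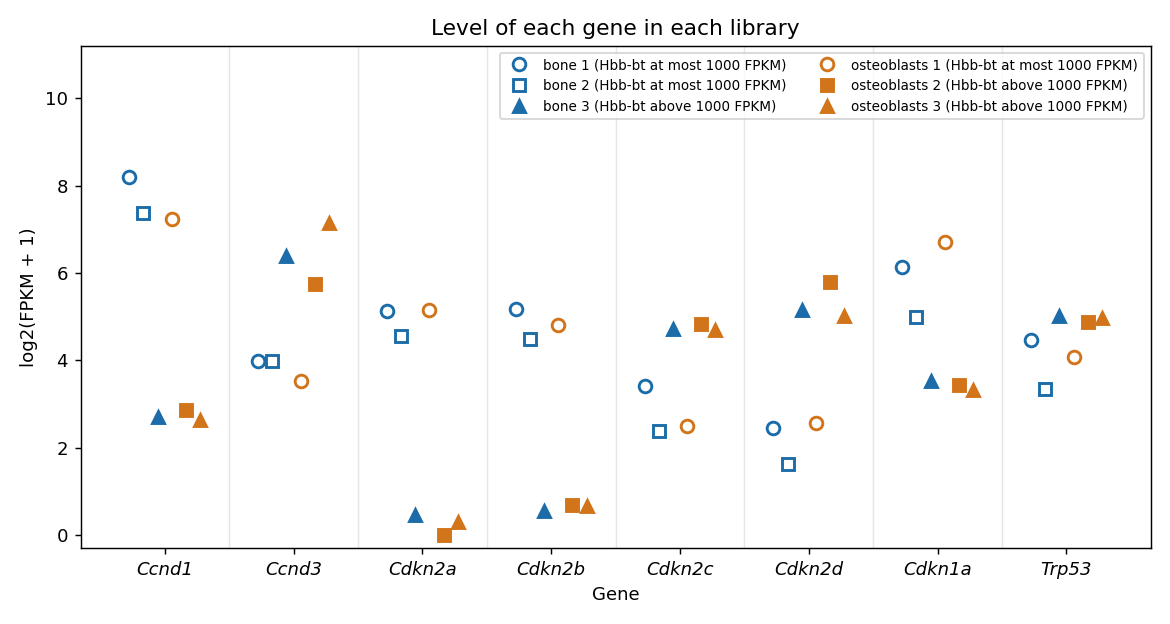
Level of the 8 named genes in each of the 6 libraries, as log2(FPKM + 1); colour gives the deposited label, symbol shape the replicate, and filled symbols mark libraries with Hbb-bt above 1000 FPKM. Filled and open symbols do not overlap for any of the 8 genes, while blue and orange symbols overlap for all of them.

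The Ink4 family divided into pairs of genes. *Cdkn2a* and *Cdkn2b* are neighbours on the minus strand of Chr. 4 (89274471 to 89294653 and 89306289 to 89311032), and both accumulate in cultured and senescent cells. *Cdkn2a* encodes the kinase inhibitor p16Ink4a and, from another first exon and reading frame, p19Arf, which restrains Mdm2, and the tables do not separate these transcripts. *Cdkn2a* measured 33.8 and 22.6 FPKM in bone 1 and bone 2 and 34.8 in osteoblasts 1, against 0.387 in bone 3 and 0.240 in osteoblasts 3, and it was listed at 0 in osteoblasts 2. *Cdkn2b*, which encodes p15Ink4b, an inhibitor induced by TGF-beta, measured 35.4, 21.3 and 27.2 FPKM in the same first 3 libraries and 0.475, 0.604 and 0.597 FPKM in bone 3, osteoblasts 2 and osteoblasts 3. These were the widest separations among the 8 genes. The lowest *Cdkn2a* value with little *Hbb-bt* was 58.4 times the highest value with much of it, and for *Cdkn2b* this factor was 35.4. Both genes pass the filter of a mean of at least 1 FPKM only through the libraries where they are high, and their low values lie near the floor, so that these factors are imprecise. In bone 1, bone 2 and osteoblasts 1, *Cdkn2a* and *Cdkn2b* stood at nearly equal levels in FPKM, with ratios of 0.956, 1.06 and 1.28. In coverage *Cdkn2a* was the lower in each of them, at 61.6 against 88.0, 36.3 against 46.9 and 51.5 against 55.3.

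Start regions of this locus are shown because the pair was high and low in the same libraries. The first is the upstream *Cdkn2a* start that serves Arf (chr4:89294570-89294869), the second the start that serves p16Ink4a (chr4:89282143-89282442), and the third is *Cdkn2b* (chr4:89310983-89311282), all on the minus strand of RefSeq GRCm38.p6, with capitals as above.
Cdkn2a upstream start: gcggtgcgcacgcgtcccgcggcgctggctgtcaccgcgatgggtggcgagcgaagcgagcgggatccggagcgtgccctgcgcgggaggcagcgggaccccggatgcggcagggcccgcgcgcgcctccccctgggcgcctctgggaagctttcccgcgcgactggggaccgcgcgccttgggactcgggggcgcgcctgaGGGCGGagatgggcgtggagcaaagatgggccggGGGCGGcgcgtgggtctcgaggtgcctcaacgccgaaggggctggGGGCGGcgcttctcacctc
Cdkn2a downstream start: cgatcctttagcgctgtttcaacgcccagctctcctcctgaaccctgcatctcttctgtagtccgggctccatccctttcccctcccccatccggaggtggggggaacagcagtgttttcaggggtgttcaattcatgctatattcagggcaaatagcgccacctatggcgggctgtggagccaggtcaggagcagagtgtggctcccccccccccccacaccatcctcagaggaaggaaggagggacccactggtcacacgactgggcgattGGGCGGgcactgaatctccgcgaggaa
Cdkn2b: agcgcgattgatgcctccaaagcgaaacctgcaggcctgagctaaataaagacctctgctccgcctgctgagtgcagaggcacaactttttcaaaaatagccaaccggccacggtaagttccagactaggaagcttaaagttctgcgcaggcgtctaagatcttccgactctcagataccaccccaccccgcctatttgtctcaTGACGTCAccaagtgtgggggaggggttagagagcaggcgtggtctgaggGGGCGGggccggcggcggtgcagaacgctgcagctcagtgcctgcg
The upstream *Cdkn2a* window holds 45 CpG and 3 GC boxes, the downstream window 12 CpG and 1 GC box, and the *Cdkn2b* window 18 CpG, 1 GC box and 1 palindromic element that matches the core on both strands (counted there as 2 overlapping matches). The median over all windows was 7 CpG.

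*Cdkn2c* and *Cdkn2d* had the opposite order. They encode p18Ink4c and p19Ink4d, inhibitors known from differentiating blood cells and neurons. *Cdkn2c* (Chr. 4, 109660876 to 109667189) measured 25.4 FPKM in bone 3 and 27.7 and 24.7 in osteoblasts 2 and osteoblasts 3, a narrow range, and 9.72, 4.26 and 4.66 FPKM in bone 1, bone 2 and osteoblasts 1. *Cdkn2d* (Chr. 9, 21288410 to 21291407) measured 34.8, 54.4 and 31.3 FPKM in the libraries with much *Hbb-bt* and 4.50, 2.11 and 4.97 FPKM in those with little, in the same order of libraries. Neither gene overlapped between these libraries, and the nearest values lay 2.54-fold apart for *Cdkn2c* and 6.31-fold apart for *Cdkn2d*. *Cdkn2d* exceeded *Cdkn2c* 1.37-, 1.97- and 1.27-fold in the libraries rich in *Hbb-bt*, and was below it in bone 1 and bone 2 (ratios of 0.463 and 0.494) but not in osteoblasts 1 (1.06).

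Summed over the family, Ink4 transcripts overlapped in FPKM between the libraries with much and with little *Hbb-bt*. The sum was 83.4, 50.3 and 61.1 FPKM in bone 1, 2 and 3 and 71.6, 82.7 and 56.9 FPKM in osteoblasts 1, 2 and 3. Scaled to the sum of named genes, which is then the same in every library, there was no overlap, with scaled sums of 140.1, 141 and 184 in bone 1, bone 2 and osteoblasts 1 and 69.8, 96.1 and 69.1 in bone 3, osteoblasts 2 and osteoblasts 3. Within a library, where scaling has no part, the libraries differed in the share of *Cdkn2a* and *Cdkn2b* in that sum, which was 82.9, 87.3 and 86.5% with little *Hbb-bt* and 1.41, 0.730 and 1.47% with much of it.

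**Figure D2:**
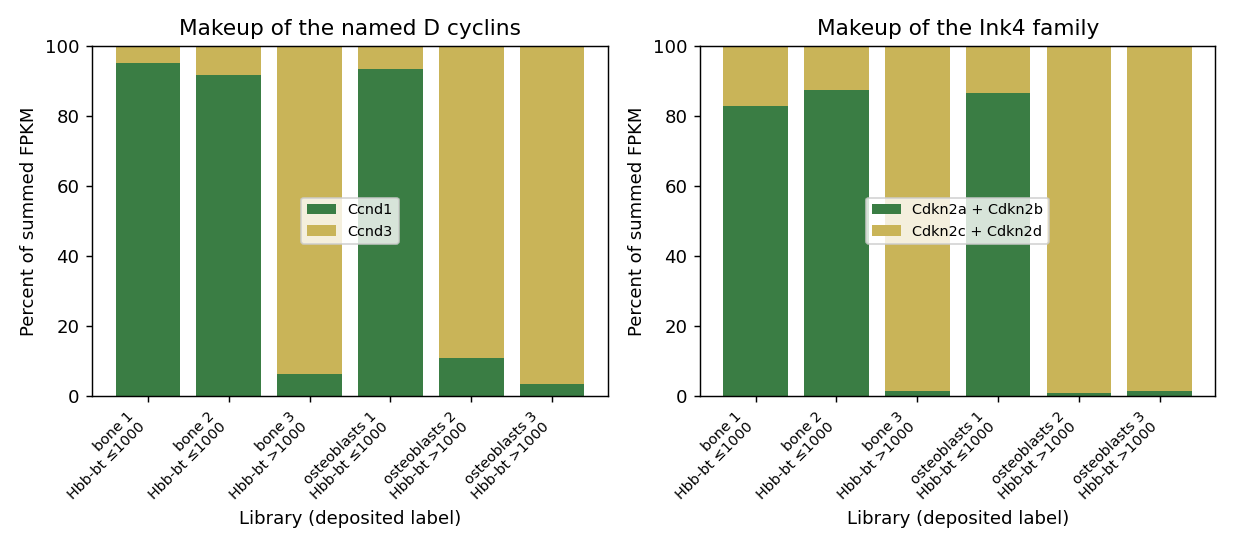
Share of the summed FPKM in each library held by Ccnd1 and Ccnd3 (left) and by Cdkn2a with Cdkn2b and Cdkn2c with Cdkn2d (right); the axis labels give the deposited label and the Hbb-bt class. Ccnd1 holds 91.8 to 95.2% and Cdkn2a with Cdkn2b 82.9 to 87.3% in bone 1, bone 2 and osteoblasts 1, and at most 10.7% and 1.47% in the other 3 libraries.

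*Cdkn1a* encodes p21, the inhibitor through which p53 halts the cell cycle, and in FPKM its RNA followed that of *Ccnd1* and not that of *Trp53*. Its row (Chr. 17, plus strand) spans 29090979 to 29100722. It measured 103 FPKM in osteoblasts 1, 69.3 and 30.9 in bone 1 and bone 2, and 10.6, 9.83 and 8.97 in bone 3, osteoblasts 2 and osteoblasts 3. The 3 low values lay within 1.18-fold of each other, whereas the 3 high values spread 3.33-fold. RefSeq lists 2 starts for the gene, and the upstream window holds a p53 response element, searched as adjacent copies of the consensus decamer with at most 1 mismatch outside the core. This window is printed because the RNA of *Trp53* and that of the best-known p53 target were not high in the same libraries in FPKM (chr17:29090729-29091028, plus strand, RefSeq GRCm38.p6). Capitals mark the element, at 29090928 to 29090947, which begins 51 bases before the start and holds 1 mismatch.
Cdkn1a upstream start: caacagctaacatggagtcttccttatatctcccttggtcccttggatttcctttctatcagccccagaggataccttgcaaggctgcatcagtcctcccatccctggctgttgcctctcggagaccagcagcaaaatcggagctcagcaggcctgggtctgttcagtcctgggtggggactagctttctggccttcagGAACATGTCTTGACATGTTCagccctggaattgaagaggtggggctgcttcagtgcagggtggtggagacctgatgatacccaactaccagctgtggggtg
Such an element was found in 18 of the 32851 windows, 0.0548%, and it is given as a match of letters and not as a bound site.

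*Trp53* varied least of the 8 genes. Its row (Chr. 11, plus strand) spans 69580359 to 69591873, and it measured 31.2, 28.3 and 30.6 FPKM in bone 3, osteoblasts 2 and osteoblasts 3, and 21.3, 9.18 and 16.0 FPKM in bone 1, bone 2 and osteoblasts 1. The highest library was 3.40 times the lowest, against at least 6.50 times for each of the other 6 genes that were above 0 in every library. Its separation also depended on the scale. In TPM, which sets the sum over transcripts equal in every library, bone 1 at 24.8 was above osteoblasts 2 at 23.2, and scaled to the sum of named genes the highest value was that of osteoblasts 1. The ratio of *Cdkn1a* to *Trp53* was 3.26, 3.37 and 6.45 in bone 1, bone 2 and osteoblasts 1, and 0.339, 0.348 and 0.294 in bone 3, osteoblasts 2 and osteoblasts 3.

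*Cdkn1b* encodes p27, the Cip/Kip inhibitor of resting cells, and it too is covered only by an unnamed locus (Chr. 6, plus strand, 134832009 to 134925610). The locus measured 19.3 FPKM in bone 3 and 16.6 and 10.7 in osteoblasts 2 and osteoblasts 3, against 5.86, 2.93 and 3.99 in bone 1, bone 2 and osteoblasts 1. RefSeq places *Cdkn1b* at its right end, from 134920401 to 134925525. The planned ratio of *Cdkn1a* to *Cdkn1b* was not computed, since what else contributes to the locus is unknown.

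In FPKM, 4 of the 8 genes (*Ccnd3*, *Cdkn2c*, *Cdkn2d* and *Trp53*) had their 3 highest values and the other 4 (*Ccnd1*, *Cdkn2a*, *Cdkn2b* and *Cdkn1a*) their 3 lowest in the libraries with *Hbb-bt* above 1000 FPKM. Such an order was common, since 38.4% of the 12112 genes had their 3 highest and 16.9% their 3 lowest values in those libraries, 55.3% in all. The count is a description, because the libraries were parted by a measured value and not by a label. The order of the 8 genes in FPKM within a library shows the same. *Ccnd1* came first and *Cdkn1a* next in bone 1, bone 2 and osteoblasts 1, whereas *Ccnd3* and *Cdkn2d* took the top places in the other 3 libraries, with *Cdkn2b* and *Cdkn2a* last. Neighbours in that order often lay within the spread between libraries. *Cdkn2a* and *Cdkn2b* changed places between bone 1 and bone 2, as did *Ccnd3* and *Trp53*. *Cdkn2d* was ahead of *Ccnd3* only in osteoblasts 2. The order between genes depended on the unit. In coverage, *Ccnd3* (27.8) stood below *Cdkn2d* (74.3), *Cdkn2c* (52.8) and *Trp53* (32.1) in bone 3, and *Cdkn2b* (88.0) stood above *Cdkn1a* (39.1) in bone 1.

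The libraries were made to ask whether certain transcripts are expressed in bone or bone cells, and the comparison of the labels for these genes is one that the design allows. No difference in the 8 genes passed the test. limma was fitted to log2(FPKM + 1) of all 12112 genes with a mean of at least 1 FPKM, a filter that each of the 8 passed. Benjamini-Hochberg adjusted p-values under 0.05 were found for 0% of the 12112 genes (0 genes), and unadjusted values under 0.05 for 17 genes, 0.14%, none of them among the 8. The median difference of the 8 genes was -0.02 against 0.12 over all genes, with 4 above and 4 below 0. *Cdkn2d* had the smallest unadjusted p of the 8, with a log2 fold change of 1.38 (standard error 1.04, limma adjusted p = 0.999). That of *Ccnd1* was -1.85 (standard error 1.58, limma adjusted p = 0.999), from 155 ± 144 FPKM (SD, n = 3) in bone and 53.8 ± 83.3 FPKM (SD, n = 3) in osteoblasts. *Cdkn1a* came to 36.9 ± 29.8 and 40.6 ± 54.1 FPKM (SD, n = 3 each), with a log2 fold change of -0.40 (standard error 0.99, limma adjusted p = 0.999). For each of the 8 genes the log2 fold change was smaller in size than the SD within labels in log2 from the fit. That SD ran from 0.69 (*Trp53*) to 2.79 (*Ccnd1*). The ranges of the labels overlapped for every one of them, while 0.479% of all genes had every osteoblast value above every bone value and 0.438% every one below.

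Osteoblasts 1 and bone 3 each moved several of these values. Without osteoblasts 1, *Ccnd1* was lower under the label osteoblasts by a log2 fold change of -3.35 (limma adjusted p = 0.0211). *Cdkn2a* was lower by -3.23 (limma adjusted p = 0.0071) and *Cdkn2b* by -2.73 (limma adjusted p = 0.0258). In that fit limma called 360 of 12362 genes tested, in place of 0 of 12112. *Cdkn2a* and *Cdkn2b* passed the filter only through the libraries where they were high. For *Ccnd1* and *Cdkn2b* the labels still overlapped, since bone 3 (5.50 and 0.475 FPKM) was below osteoblasts 2 (6.33 and 0.604 FPKM). The standard errors in that fit were 0.86 (*Ccnd1*), 0.73 (*Cdkn2a*) and 0.73 (*Cdkn2b*). limma draws the variance of each gene toward a trend over all genes, so these p-values do not measure the gene's own spread alone. That spread was wide, since bone 3 lay near the osteoblast values. Between bone 3 and bone 1, log2(FPKM + 1) ran from 0.472 to 5.12 for *Cdkn2a* and from 2.70 to 8.20 for *Ccnd1*. Without bone 3 the same genes moved as far, to -3.55 (*Ccnd1*, limma adjusted p = 0.0633), -3.02 (*Cdkn2a*, 0.0985) and -2.78 (*Cdkn2b*, 0.0929). None of them passed the threshold there, and limma called 3 of 11890 genes tested. *Cdkn2d* reached 2.32 without osteoblasts 1 and 2.41 without bone 3, neither past the threshold. Among the 3 libraries with little *Hbb-bt* (2 of bone and 1 of osteoblasts) the log2 fold changes were -0.55 for *Ccnd1*, -0.46 for *Ccnd3*, 1.14 for *Cdkn1a* and 0.17 for *Trp53*, with none called. Among the 3 with much of it (1 of bone and 2 of osteoblasts) those of the 6 genes that passed the filter there lay between -0.15 (*Cdkn1a*) and 0.24 (*Cdkn2d*).

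**Figure D3:**
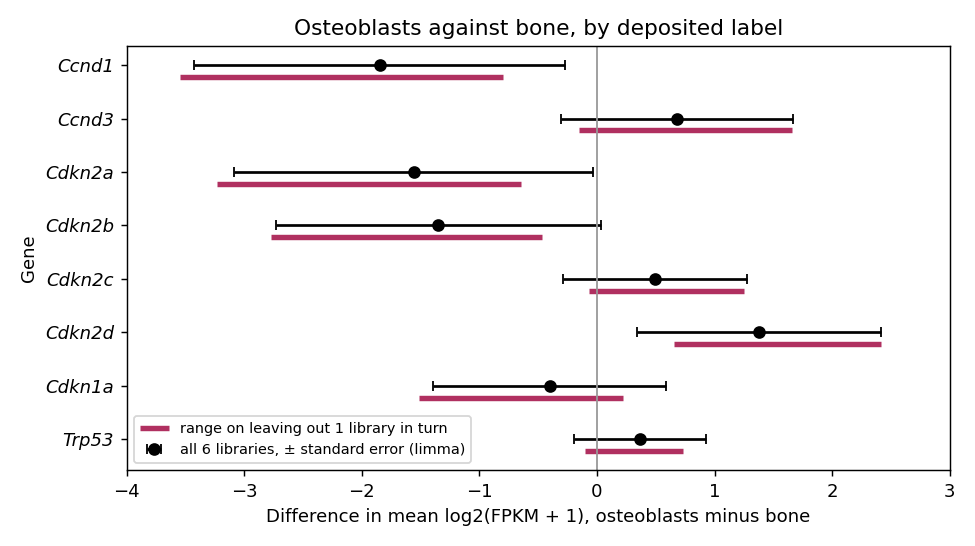
Difference in mean log2(FPKM + 1) between the libraries labelled osteoblasts and those labelled bone for the 8 genes, with the standard error from limma (black) and the range on leaving out each library in turn (red). Ccnd1 has the most negative value, -1.85, and Cdkn2d the most positive, 1.38, and none passed the adjusted threshold with all 6 libraries.

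The rest of the machinery was followed in lists of genes. By label, limma called 0 genes of each of the 5 lists, and 0 had an unadjusted p under 0.05. Of the partners of the D cyclins and the pocket proteins, 14 were tested, with a median log2 fold change of 0.35 against 0.12 over all genes. In FPKM, 10 of them had their 3 highest values and 1 its 3 lowest in the libraries with much *Hbb-bt*, against 38.4% and 16.9% of all genes. On the other 5 scales the first count was 7 to 9, where the share of all genes was 21.4 to 39.7%, and the second rose to 4 when scaled to the sum of named genes, where 48.6% of all genes were lowest. *Cdk4*, the main kinase partner of D cyclins, measured 56.2 and 30.1 FPKM in bone 1 and bone 2 and 39.7 in osteoblasts 1, and 76.5, 60.2 and 66.9 FPKM in bone 3, osteoblasts 2 and osteoblasts 3. *Cdk6*, its relative, overlapped between these libraries at 7.44 to 19.3 FPKM. *E2f2*, an E2F activator of S phase genes, measured at most 0.825 FPKM in the first 3 of these libraries and 55.4 to 67.9 FPKM in the rest, while *E2f4*, a repressive E2F, stood at 6.63 to 15.4 FPKM in the libraries with little *Hbb-bt* and at 48.1 to 56.6 FPKM in the others. *Tfdp2*, an E2F partner, and *Cdk2*, the kinase of cyclin E, had the same order (1.68 to 4.82 against 31.7 to 41.4 FPKM, and at most 5.20 against at least 22.3 FPKM).

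Genes of DNA replication and mitosis had their 3 highest values with much *Hbb-bt* in 12 of 12 cases, on each of the 6 scales tried. The share of all genes was 38.4% in FPKM and 21.4 to 39.7% on the other scales. The sum of the list was 550 to 660 FPKM in these libraries and 58.2 to 128 FPKM elsewhere. *Mcm5*, *Mcm2* and *Mcm3*, subunits of the replicative helicase, measured 97.3 to 109, 65.9 to 72.5 and 49.3 to 53.8 FPKM in those libraries, and at most 10.2, 7.26 and 12.7 FPKM in the rest. *Pcna*, the sliding clamp, measured 62.2 to 102 against 16.0 to 35.0 FPKM, *Rrm2*, a subunit of ribonucleotide reductase, 54.6 to 74.2 against 4.48 to 11.6 FPKM, and *Ccnb2*, a mitotic cyclin, 51.4 to 63.8 against 2.24 to 5.82 FPKM. Libraries high in *Ccnd1*, *Cdkn2a*, *Cdkn2b* and *Cdkn1a* were those low in these genes. The median log2 fold change by label was 0.88 (12 of 12 above 0), against 0.12 over all genes.

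Regulators and targets of p53 leaned the other way. Of the 22 tested, 12 had their 3 lowest FPKM and 2 their 3 highest in the libraries with much *Hbb-bt*, against 16.9% and 38.4% of all genes. The count of 12 ranged from 7 in coverage to 18 scaled to the sum of named genes, where the share over all genes moved from 11.1% to 48.6%. *Ccng1*, a direct p53 target, measured 99.8, 57.7 and 50.7 FPKM in bone 1, bone 2 and osteoblasts 1, and 4.00, 4.48 and 7.34 FPKM in bone 3, osteoblasts 2 and osteoblasts 3. *Phlda3*, a p53 target that restrains Akt, measured 58.3, 23.7 and 49.2 FPKM against 6.14, 5.83 and 4.89 FPKM in the same libraries. *Mdm2*, the ubiquitin ligase of p53, measured 22.1 to 38.0 against 9.14 to 15.4 FPKM. *Bax*, which promotes apoptosis (at least 21.7 against at most 19.7 FPKM), and *Sesn1*, a stress-induced sestrin (14.1 to 30.9 against 12.2 to 13.4 FPKM), were separated by a smaller margin, and *Rps27l* overlapped at 53.7 to 107 FPKM. Several p53 targets were therefore high in the same libraries as *Cdkn1a*, and in FPKM the RNA of *Trp53* was not. In TPM, or scaled to the sum of named genes, *Trp53* overlapped between the libraries. The level of p53 protein was not measured.

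Among the genes of D cyclin and p27 turnover, 3 of the 9 tested had their 3 highest and 1 its 3 lowest FPKM in those libraries, which is not above the shares of all genes (38.4% and 16.9%), and the order turned on 3 of the other 5 scales. *Cks1b*, the cofactor of Skp2 in p27 degradation, measured 26.0 to 26.6 against 3.95 to 8.09 FPKM, while *Skp1a* (24.5 to 67.5 FPKM), *Cul1* (14.0 to 42.2 FPKM) and *Gsk3b*, a kinase that marks cyclin D1 for export and degradation (5.49 to 14.2 FPKM), overlapped. *Ambra1*, an adaptor for D cyclin degradation, and *Fbxo31*, an F-box protein, were higher there by less (9.03 to 10.4 against 4.17 to 8.35 FPKM, and 9.48 to 10.8 against 3.57 to 6.85 FPKM). Of 12 regulators of the Ink4 locus tested, 7 had their 3 highest and 2 their 3 lowest FPKM in them, against the same 38.4% and 16.9%. Scaled to the sum of named genes these counts were 4 and 5, where the shares of all genes were 21.4% and 48.6%. *Ezh2*, the Polycomb methyltransferase that silences *Cdkn2a*, measured 15.1 to 20.4 FPKM there and 1.93 to 5.50 FPKM where *Cdkn2a* was high. *Bmi1* and *Rnf2*, also Polycomb genes, were the 2 with their 3 lowest values there. *Bmi1* measured 1.18 to 1.59 against 4.40 to 7.36 FPKM and *Rnf2* 2.00 to 3.89 against 4.40 to 9.15 FPKM. The part of these genes in the level of *Cdkn2a* was not tested. *Ets1*, an activator of p16Ink4a, measured 12.4 to 15.6 against 3.09 to 6.14 FPKM and *Ring1*, a Polycomb ligase, 6.64 to 9.49 against 3.68 to 6.61 FPKM, whereas *Id1* (11.7 to 26.9 FPKM), *Eed* (7.86 to 15.5 FPKM) and *Ets2* (4.56 to 9.46 FPKM) overlapped. The median log2 fold changes by label were -0.16 for the p53 list, -0.02 for the turnover list and 0.26 for the Ink4 regulators.

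**Figure D4:**
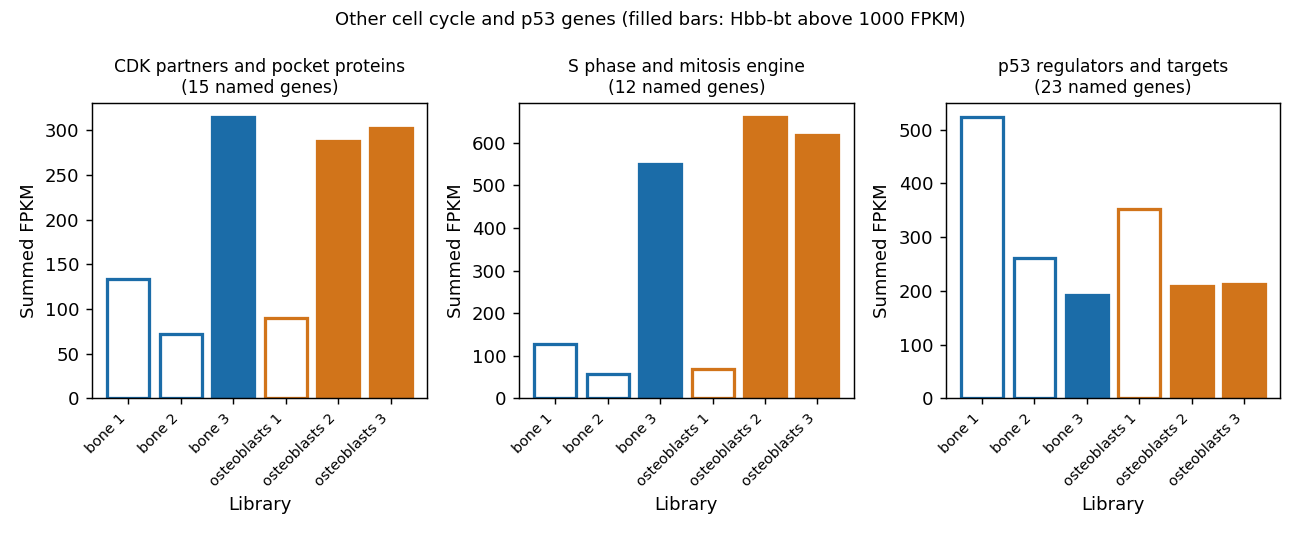
Summed FPKM in each library of the named genes of 3 lists, the CDK partners and pocket proteins, the S phase and mitosis genes, and the p53 regulators and targets; filled bars are libraries with Hbb-bt above 1000 FPKM, blue is bone and orange osteoblasts. The first 2 sums are highest in bone 3, osteoblasts 2 and osteoblasts 3, at 288 to 314 and 550 to 660 FPKM, and the p53 sum is lowest there, at 192 to 212 FPKM.

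The genes most like a member in pattern were ranked by Pearson’s r on log2(FPKM + 1) over the 6 libraries, among genes with a mean of at least 10 FPKM. With 6 libraries that fall into separate sets such values are a description. For *Ccnd1* they included *Stab1* (r = 0.999), a scavenger receptor of macrophages and endothelium, and *C3ar1* (r = 0.998), a complement receptor, and 8.83% of the tested genes had an r above 0.9. *Stab1* measured 558, 292 and 303 FPKM in bone 1, bone 2 and osteoblasts 1. For *Cdkn1a* they were *Dmp1* (r = 0.998), a matrix protein of osteocytes, *Cd14* (r = 0.991), a monocyte receptor, and *Creb3l1* (r = 0.991), a transcription factor of osteoblasts, and 5.77% were above 0.9. *Dmp1* shared with *Cdkn1a* its highest value in osteoblasts 1, at 127 FPKM. For *Ccnd3* they were *Ighv9-1* (r = 0.984), an immunoglobulin heavy-chain segment, *2010107E04Rik* (r = 0.983) and *Gm28872* (r = 0.982), and 15.2% were above 0.9. *Ighv9-1* measured 30.2 FPKM in osteoblasts 3, where *Ccnd3* was also highest, and at most 0.306 FPKM where *Hbb-bt* was low.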

How the data were processed

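RNA from 3 libraries labelled bone and 3 labelled osteoblasts was sequenced as 75 bp pairs. The authors aligned reads to GRCm38 with HISAT2 2.0.5 and estimated expression with StringTie 1.3.3. The submitters' processing notes also name SAMtools 1.7. The authors deposited, per library, the coverage (a signal, the mean depth over a feature's bases), the FPKM and the TPM of 93285 features. Read counts were not used here, so single values carry no counting interval. FPKM of rows with the same gene name were summed, and unnamed rows were left out. Depth per library was derived from the modal coverage-to-FPKM ratio.

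Genes averaging 1 FPKM or more were compared by label on log2(FPKM + 1) with limma 3.58.1 (R 4.3.3, eBayes with a trend, Benjamini-Hochberg adjustment). Fold changes on this scale understate changes of low genes. The fit was tested on simulated data with a spread of 0.3 in log2, where it recovered 200 of 200 changed genes with 9 other calls. The median SD within labels was 0.591 in the real data, so this test does not show how the fit performs on them. The ratio of *Ccnd1* to *Ccnd3* was compared with an exact permutation test. Promoter windows came from RefSeq (GRCm38.p6), where 8 of the 10 genes matched. Python 3.11.15 with pandas 2.3.3, numpy 2.4.6, scipy 1.17.1 and matplotlib 3.10.9 was used.

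The members and gene lists were chosen with earlier results of these data known. Named genes are the members, up to 6 genes per pathway list by mean FPKM, and the 3 genes most like *Ccnd1*, *Ccnd3* and *Cdkn1a*. *Bmi1* and *Rnf2* were added because they ran against *Ezh2*, and *Gadd45a* and *Mdm4* because they ran against most of the p53 list. Some genes that this rule or the marker lists would name are not reported here. *Hbb-bt* and marker genes are given because libraries stood apart by them. The study gives 3 mice and describes both femora and marrow as taken from them, so the 6 libraries do not stand for 6 separate animals. The main tests by label took no account of this. Their p-values rest on the spread between these libraries, which limma moderates over all genes. Alternatives were another pseudocount, filter, unit, scaling or fit, the replicate number as a block, and leaving out libraries. Other scales for the count of genes separated by *Hbb-bt* and for the Ink4 sum were added after seeing the data.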

Additional observations from a re-analysis of the deposited data

Results flagged for a closer look

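The unnamed loci that span *Ccnd2* and *Cdkn1b* entered no test, yet both held signal above the floor of 0.133 to 0.221 FPKM in each library. The locus around *Ccnd2* reached 54.7 FPKM in osteoblasts replicate 1 and was lowest in osteoblasts replicate 3, at 5.93 FPKM. The locus around *Cdkn1b* reached 19.3 FPKM in bone replicate 3 and was lowest in bone replicate 2, at 2.93 FPKM. The part of other transcripts in these loci was not tested.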

How the results depend on the processing

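Of 134 log2 fold changes of the 8 genes under an alternative, 119 kept their direction and stayed short of the threshold, 12 reversed and 3 passed the threshold (*Ccnd1*, *Cdkn2a* and *Cdkn2b* without osteoblasts replicate 1). On leaving out each library in turn, *Ccnd1* ranged from -3.55 to -0.80, *Cdkn2a* from -3.23 to -0.65, *Cdkn2b* from -2.78 to -0.46, *Cdkn2d* from 0.65 to 2.41, *Cdkn1a* ranged from -1.51 to 0.22, *Cdkn2c* from -0.064 to 1.25, *Ccnd3* from -0.15 to 1.66 and *Trp53* from -0.098 to 0.73, limma called between 0 and 360 genes, with 3 without bone replicate 3, and the difference in the log2 ratio of *Ccnd1* to *Ccnd3* ranged from -5.22 to -0.90. Without the libraries with *Hbb-bt* above 1000 FPKM the reversed values were 1.14 (*Cdkn1a*), 0.32 (*Cdkn2a*), -0.41 (*Cdkn2c*) and -0.46 (*Ccnd3*). Without those of at most 1000 FPKM they were 0.049 (*Ccnd1*) and -0.084 (*Trp53*), the ratio differed by 0.0091, limma called 1 gene, and *Cdkn2a* and *Cdkn2b* were below the filter. Arms with 1 library were assumed to vary like the other. The count of 8 genes separated by *Hbb-bt* was 7 in TPM and scaled to the sum of named genes, with *Trp53* overlapping. The median over all genes moved from 0.12 in FPKM to -0.04 scaled to the sum of named genes. The cause of these changes was not tested.

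With the replicate block limma called 49 genes in place of 0, with none of the 8 among them, and the ratio gave p = 0.25 (exact sign-flip permutation, the smallest it allows). Deviations from the label means correlated at 0.84, -0.75 and 0.83 for numbers 1, 2 and 3, over 12112 genes that are not independent replicates. Unlike numbers of the same *Hbb-bt* class reached 0.80 and 0.83, so these values do not show whether equal numbers share a mouse, and the numbers were not taken as pairs.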
